A study of Homo sapiens with 10 samples.

Results

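The G1 cyclins, their kinases and their CIP/KIP inhibitors were examined in BEAS2B cells as 10 genes of the 52402 gene symbols in the count tables. The genes were the D-type cyclins CCND1, CCND2 and CCND3, the E-type cyclins CCNE1 and CCNE2, the kinases CDK2, CDK4 and CDK6, and the inhibitors CDKN1B and CDKN1C. They were taken by symbol and not by a cut on a measured value, but the list was chosen with earlier results of these data known. The counts of a repeated symbol were summed. BEAS2B is a human bronchial epithelial line, and all 10 libraries came from it after lipid-based transfection. The miRcontrol group received a scrambled miRNA and carried the genotype label WT. The miR3124_mimic and miR200b_mimic groups received a mimic of miR-3124-5p or of miR-200b-3p, and the miR92b_inhibitor group received an inhibitor of miR-92b whose arm the labels do not name. The 3-miRNA mixed group received both mimics and the inhibitor. According to the methods, cells were transfected at 50 nM for 48 h, and the amount of each component in the mixture is not given in the sources used here. Each group had 2 libraries. Nothing says that these came from separate transfections, so the p-values measure the spread between libraries, which may be technical. Mature miRNAs are not captured by these mRNA libraries, so uptake of the mimics and the inhibitor could not be checked.

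In G1, D-type cyclins bind CDK4 or CDK6 and start the phosphorylation of the retinoblastoma protein RB1, which holds E2F factors in check. Cyclin E with CDK2 completes that phosphorylation, and the freed E2F factors switch on genes of DNA replication. CDKN1B (KIP1) and CDKN1C (KIP2) bind and restrain cyclin-CDK2 complexes. BEAS2B cells were immortalised with a virus whose large T antigen binds RB1 and its relatives, which limits the line as a model of this pathway.

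The mature sequences of the transfected or inhibited miRNAs are shown because their seeds (bases 2 to 8, in capitals) define the words looked for in the 3′UTRs of the 10 genes. Sequences and coordinates are from RefSeq on GRCh38.p14, and both arms of miR-92b are given.
hsa-miR-3124-5p, chr1:248826383-248826403, plus strand: uUCGCGGGcgaaggcaaaguc
hsa-miR-200b-3p, chr1:1167160-1167181, plus strand: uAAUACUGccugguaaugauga
hsa-miR-92b-3p, chr1:155195237-155195258, plus strand: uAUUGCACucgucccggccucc
hsa-miR-92b-5p, chr1:155195196-155195217, plus strand: aGGGACGGgacgcggugcagug

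The words were the reverse complements of the seeds on the transcript strand, searched in the 3′UTR that GENCODE v29 (GRCh38) gives for each gene's longest coding transcript. CCCGCGA, the word for miR-3124-5p, was in 0 of the 10 members and in 0.62% of the 12259 tested genes with a 3′UTR. CAGTATT, the word for miR-200b-3p, was in 4 members (CCNE2, CDK2, CDK6 and CDKN1B), once in each, and in 19.5% of the tested genes. GTGCAAT, the word for miR-92b-3p, was in CCNE2 and CDKN1C and in 13.1% of the tested genes. CCGTCCC, for miR-92b-5p, was in 0 members and in 4.18% of the tested genes. CDK6 has a 3′UTR of 10219 bases against a median of 1341 bases, so a match by length alone is more likely there. The CAGTATT words of CDK2, CDK6 and CDKN1B are shown with 10 bases on each side and the word in capitals, on GRCh38, because after miR200b_mimic 1 of these genes fell, 1 rose and 1 did not pass the test. The word of CCNE2, which fell, is named only.
CDK2, chr12:55971819-55971825, plus strand: aaggaagtttCAGTATTagatgcactt
CDK6, chr7:92609229-92609235, minus strand: aaggatattgCAGTATTtttcagtttc
CDKN1B, chr12:12722049-12722055, plus strand: catctttaaaCAGTATTtcattgcctg

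The count tables held 13587666 to 18503890 reads per library. Levels are counts per 1000000 reads (CPM) scaled by edgeR's relative log expression factors. Each comparison used the quasi-likelihood test of edgeR, and p-values were adjusted over 14884 genes by the Benjamini-Hochberg method, and every adjusted p given here comes from it unless another tool is named. A gene is said to have risen or fallen at an adjusted p under 0.05, and ± after a log2 fold change is its standard error. The keratins KRT7, KRT8 and KRT18 were abundant in miRcontrol, but CDH1, TP63 and ESRP1 had at most 3 counts in each miRcontrol library, and 3 of 4 airway differentiation markers were at that floor too. The summed CPM of 12 epithelial markers was 2243 to 2291 in miRcontrol, 2799 to 2806 after miR3124_mimic, 4226 to 4307 after miR200b_mimic, 2115 to 2206 after miR92b_inhibitor and 4115 to 4145 in the mixed group. KRT7, KRT8 and KRT18 made up nearly all of it. KRT19 went against the sum, falling from 8.20 CPM in miRcontrol to 0.759 after miR3124_mimic (log2 −3.40, adjusted p = 8.31e-17) and to 2.61 in the mixed group (−1.65, adjusted p = 1.15e-10). From near the floor, CDH1 rose by 6.02 on the log2 scale after miR200b_mimic and by 3.87 in the mixed group. EPCAM rose by 5.08 and 4.20 in these groups, and ESRP2 by 0.92 and 0.85. For 8 mesenchymal markers, the sums were 7443 to 7467, 4525 to 4651, 4695 to 4753, 6979 to 7120 and 5043 to 5064 in the same order. VIM and FN1 carried most of this sum. After miR3124_mimic VIM fell from 3797 to 812 CPM, FN1 was at 3380 against 3261 CPM (adjusted p = 0.217), SNAI2 was lower at −1.12, and ZEB2 (0.53) and COL1A1 (0.99) rose. After miR200b_mimic VIM (−0.35), CDH2 (−0.24), FN1 (−1.21), ZEB1 (−1.30) and ZEB2 (−2.27) were lower, whereas SNAI2 (0.91) and COL1A1 (1.62) rose. In the mixed group VIM (−0.48), CDH2 (−0.12), FN1 (−0.71), ZEB1 (−1.12) and ZEB2 (−1.66) were lower, and SNAI2 (0.52) and COL1A1 (0.87) rose. PTPRC and PECAM1, markers of leukocytes and endothelium, summed to at most 0.292 CPM. In bulk RNA, fewer cells in a cell-cycle phase and less RNA per cell cannot be told apart.

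CCND1 had the highest CPM of the members in every group. It fell from a mean of 1049 ± 17.6 CPM (SD, n = 2) to 555 ± 22.3 CPM after miR3124_mimic and rose slightly in the other single transfections. CCND1 (chr11:69641087-69654474, plus strand) encodes cyclin D1, the main D-type cyclin of many epithelial cells. The miRcontrol libraries had 1061 and 1036 CPM, and the miR3124_mimic libraries had 571 and 539 CPM. The miR200b_mimic libraries had 1180 and 1151 CPM, the miR92b_inhibitor libraries 1220 and 1213 CPM, and the mixed libraries 978.0 and 978.2 CPM. Both miR3124_mimic libraries thus lay far under all 8 others, while the mixed libraries lay just under miRcontrol. The log2 fold change was −0.92 ± 0.0345 after miR3124_mimic (adjusted p = 6.21e-27). After miR200b_mimic it was 0.15 (adjusted p = 0.000213), and after miR92b_inhibitor 0.21 (adjusted p = 1.21e-06). The difference of miR92b_inhibitor from miR200b_mimic had an adjusted p of 0.123. The small fall in the mixed group, −0.10 (adjusted p = 0.0129), no longer passed without replicate 1 of miRcontrol (−0.08, adjusted p = 0.127), without replicate 1 of the mixed group (−0.10, adjusted p = 0.0724) or without its replicate 2 (−0.10, adjusted p = 0.0633). The mixed group was 0.82 higher than miR3124_mimic on the log2 scale (adjusted p = 1.14e-24).

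CCND2 was the scarcest tested member in miRcontrol and rose by the largest fold, in both mimic groups and in the mixture. CCND2 (chr12:4273772-4305350, plus strand) encodes cyclin D2, whose expression is more restricted between tissues than that of cyclin D1. It had 39 and 31 reads in miRcontrol, 122 and 152 after miR3124_mimic, 70 and 108 after miR200b_mimic, 54 and 46 after miR92b_inhibitor, and 184 and 171 in the mixed group. These are 2.23 and 1.85 CPM in miRcontrol, 8.32 and 8.59 after miR3124_mimic, 5.23 and 6.21 after miR200b_mimic, 3.15 and 2.52 after miR92b_inhibitor, and 10.2 and 9.19 in the mixed group. No library of a mimic group or of the mixture overlapped miRcontrol. CCND2 was 4.13-fold higher after miR3124_mimic (log2 2.05 ± 0.194, adjusted p = 1.31e-12). It was 2.82-fold higher after miR200b_mimic (1.49 ± 0.209, adjusted p = 6.92e-08) and 4.72-fold higher in the mixed group (2.24 ± 0.187, adjusted p = 4.73e-14). Among all 14884 genes, ordered from the largest rise, CCND2 stood at place 179, 230 and 115 in these 3 comparisons. After miR92b_inhibitor the difference was 0.47 ± 0.235 (adjusted p = 0.123). The mixed group was above miR200b_mimic by 0.75 (adjusted p = 0.000124), while its difference from miR3124_mimic, 0.19, did not pass (95% interval −0.10 to 0.48, adjusted p = 0.287).

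CCND3 (chr6:41934933-42050357, minus strand), which encodes cyclin D3, fell after miR3124_mimic and miR92b_inhibitor and rose a little after miR200b_mimic. Its miRcontrol libraries had 100.2 and 97.8 CPM, against 59.5 and 63.8 after miR3124_mimic, 114 and 111 after miR200b_mimic, 76.8 and 77.8 after miR92b_inhibitor, and 89.4 and 89.4 in the mixed group. The 5 groups did not overlap, and each neighbouring pair in the order of the levels differed. The log2 fold changes were −0.68 (adjusted p = 1.09e-15), 0.19 (adjusted p = 0.00140), −0.36 (adjusted p = 9.86e-08) and −0.15 (adjusted p = 0.0112) in the order just given. The last of these no longer passed in DESeq2 (adjusted p = 0.0540), without replicate 1 of miRcontrol (−0.13, adjusted p = 0.0983), or without replicate 1 (−0.15, adjusted p = 0.0546) or replicate 2 (−0.15, adjusted p = 0.0537) of the mixed group.

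**Figure D1:**
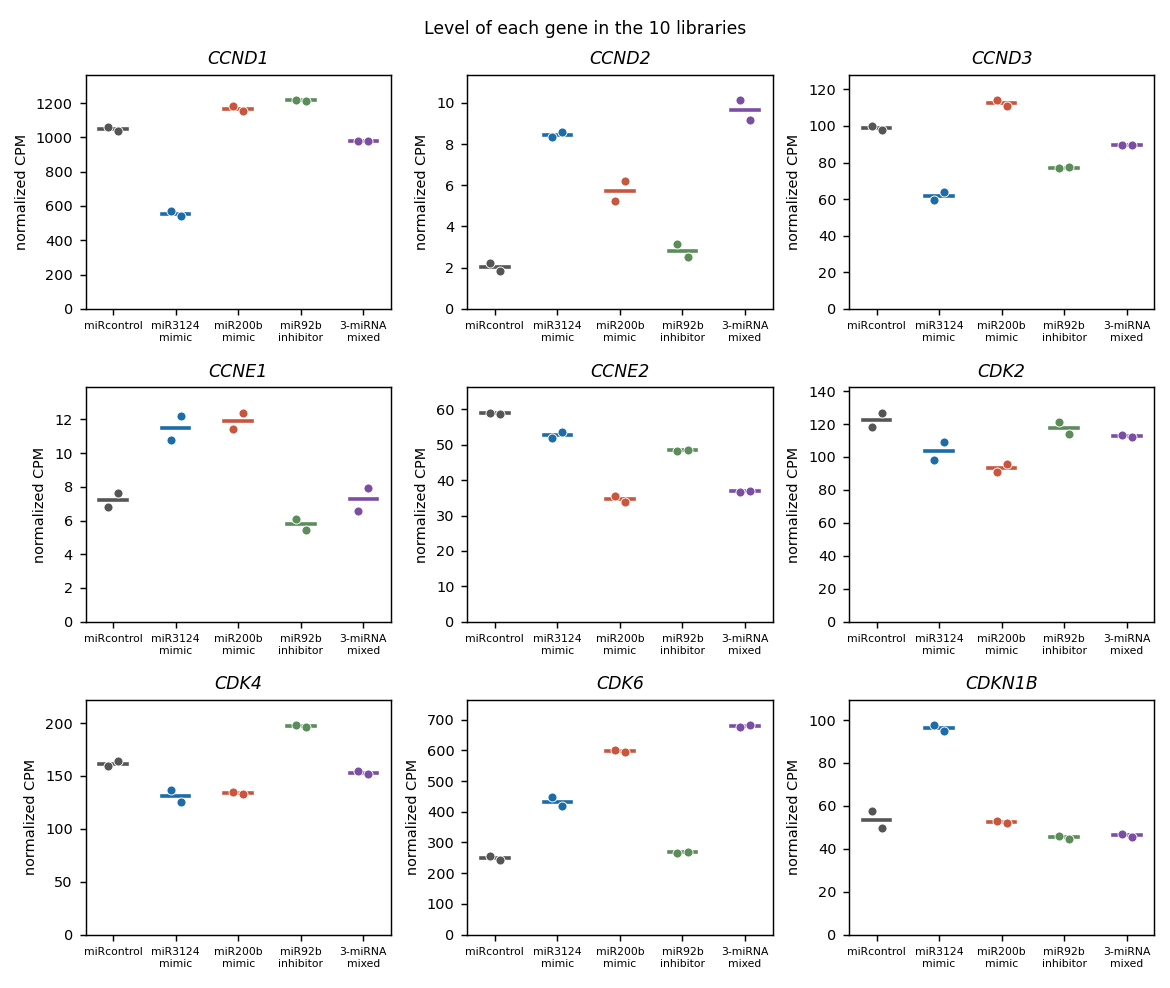
Level of each of the 9 tested members in CPM (linear axis from 0, its own scale for each gene) in the 5 groups, with a point for each library and a line at the group mean. CCND1 is lowest after miR3124_mimic at 555 CPM, CCND2 and CDK6 are highest in the 3-miRNA mixed group, and CDKN1B stands out after miR3124_mimic at 96.3 CPM.

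CDK6 rose after miR200b_mimic, after miR3124_mimic and most in the mixture, while CDK4, the other kinase of D-type cyclins, fell in both mimic groups. Both kinases pair with D-type cyclins. CDK6 (chr7:92604921-92836594, minus strand) had 256 and 242 CPM in the miRcontrol libraries, 448 and 418 after miR3124_mimic, 603 and 595 after miR200b_mimic, 266 and 269 after miR92b_inhibitor, and 676 and 682 in the mixed group. The groups did not overlap at any point of this order, and each step between neighbours passed the test. CDK6 was 2.73-fold higher in the mixed group (log2 1.45 ± 0.0379, adjusted p = 1.49e-32), 2.40-fold higher after miR200b_mimic (1.27 ± 0.0383, adjusted p = 2.15e-30) and 0.80 ± 0.0385 higher on the log2 scale after miR3124_mimic (adjusted p = 1.01e-22). Of the 4 members with a CAGTATT word, CDK6 rose after miR200b_mimic, CCNE2 (log2 −0.77) and CDK2 (−0.39) fell, and CDKN1B did not pass the test. The mixture exceeded miR200b_mimic by 0.18 on the log2 scale (adjusted p = 5.88e-05) and miR3124_mimic by 0.65. After miR92b_inhibitor the rise was 0.10 ± 0.0393 (adjusted p = 0.0369). It no longer passed in DESeq2 (adjusted p = 0.0522), without replicate 2 of miRcontrol (0.06, adjusted p = 0.387), or without replicate 1 (0.11, adjusted p = 0.0832) or replicate 2 (0.10, adjusted p = 0.140) of miR92b_inhibitor. The epithelial marker sum given above was also highest in the groups where CDK6 was highest, and its part in the result was not tested.

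CDK4 (chr12:57747727-57756013, minus strand) had 159 and 164 CPM in miRcontrol, 137 and 126 after miR3124_mimic, 135 and 133 after miR200b_mimic, 198 and 196 after miR92b_inhibitor, and 154 and 152 in the mixed group. The miR92b_inhibitor libraries were the highest and the mimic libraries the lowest. CDK4 fell by 0.30 on the log2 scale after miR3124_mimic (adjusted p = 1.25e-07) and by 0.27 after miR200b_mimic (adjusted p = 1.67e-06), and these groups did not differ from each other beyond their spread (adjusted p = 0.613). It rose by 0.28 after miR92b_inhibitor (adjusted p = 4.20e-07). In the mixed group it was −0.08 (95% interval −0.16 to 0.01, adjusted p = 0.146).

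Levels of different genes were compared per kilobase of exon. On this scale CCND1 was at 217 ± 3.66 CPM per kb (SD, n = 2) in miRcontrol, followed by CDK4 at 51.0 ± 1.14, CDK2 at 31.5 ± 1.58, CDK6 at 20.3 ± 0.784, CDKN1B at 19.03 ± 1.95, CCND3 at 17.1 ± 0.294, CCNE2 at 13.4, CCNE1 at 2.83 and CCND2 at 0.285. The libraries of CDK6 and CDKN1B overlapped. In the mixed group, CDK6 reached 55.4 ± 0.294 CPM per kb, above CDK4 at 48.3 ± 0.558. The ratio of CDK6 to CDK4 per kb was 0.416 and 0.381 in the miRcontrol libraries, 0.844 and 0.858 after miR3124_mimic, 1.16 and 1.15 after miR200b_mimic, 0.348 and 0.354 after miR92b_inhibitor, and 1.13 and 1.16 in the mixed group. On this scale CDK6 lay above CDK4 after miR200b_mimic and in the mixture, and below it in the other groups. The exon length used was 12260 bases for CDK6 and 3168 bases for CDK4, whose 3′UTR had 798 bases. A shorter CDK4 transcript would raise its level per kilobase, so which mRNA was the more abundant is not settled. The change of the ratio between groups does not depend on these lengths. CCND1 stayed the main D-type cyclin mRNA per kilobase, at 90.2% to 94.9% of the 3 in any library, even where it fell and CCND2 rose. An exon length summed over transcripts is only a guide to the length of the transcripts present.

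**Figure D2:**
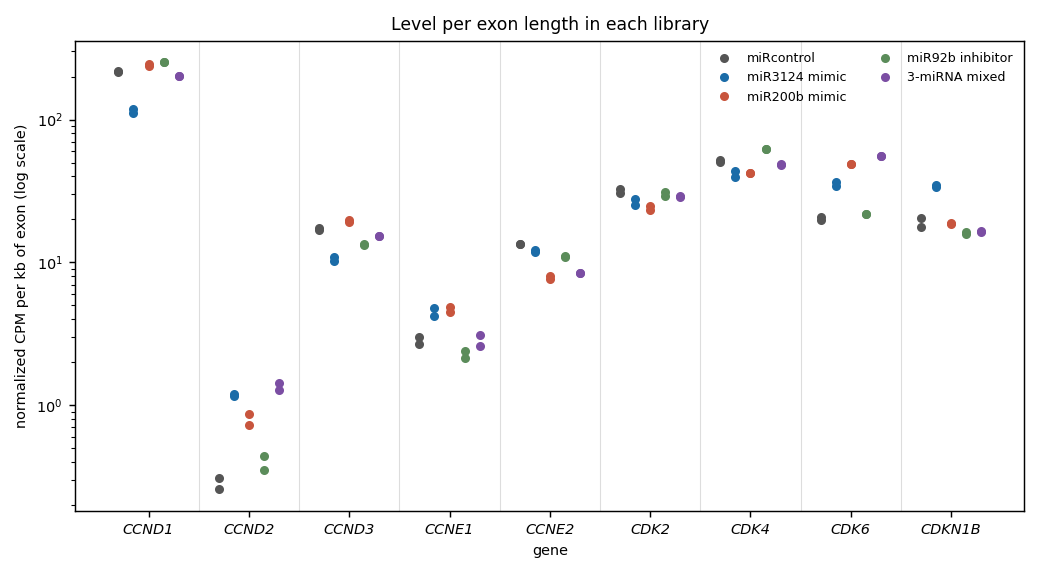
Level of each of the 9 tested members per kilobase of exon (CPM per kb, log axis), with a point for each library, coloured by group. CCND1 is highest in every group. With the exon lengths used, CDK6 lies above CDK4 after miR200b_mimic and in the 3-miRNA mixed group, where they are at 55.4 and 48.3 CPM per kb.

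After miR200b_mimic the E-type cyclins moved in opposite directions, with CCNE1 higher and CCNE2 lower. After miR3124_mimic CCNE1 rose as well, and a small fall of CCNE2 was lost in most alternatives. CCNE1 and CCNE2 encode cyclins E1 and E2, the partners of CDK2 at the end of G1. CCNE1 (chr19:29811898-29824308, plus strand) had 6.81 and 7.63 CPM in miRcontrol, 10.8 and 12.2 after miR3124_mimic, 11.4 and 12.4 after miR200b_mimic, 6.12 and 5.42 after miR92b_inhibitor, and 6.57 and 7.96 in the mixed group. Both mimic groups lay above all other libraries, and the mixed libraries overlapped miRcontrol. CCNE1 rose by 0.68 ± 0.140 on the log2 scale after miR3124_mimic (adjusted p = 5.75e-05) and by 0.73 after miR200b_mimic (adjusted p = 2.74e-05). In the mixed group it was 0.01 (95% interval −0.29 to 0.31, adjusted p = 0.962), which was 0.67 lower than after miR3124_mimic and 0.72 lower than after miR200b_mimic (adjusted p = 3.48e-05 for the latter). The rise seen with either mimic was therefore not seen when both were given with the inhibitor. After miR92b_inhibitor CCNE1 was at −0.32 (95% interval −0.64 to −0.01 before adjustment, adjusted p = 0.101).

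CCNE2 had 59.1 and 58.7 CPM in miRcontrol, 52.1 and 53.5 after miR3124_mimic, 35.5 and 33.7 after miR200b_mimic, 48.2 and 48.6 after miR92b_inhibitor, and 36.8 and 37.0 in the mixed group. The 8 libraries of the mimic, inhibitor and mixed groups lay under both miRcontrol libraries. CCNE2 fell by 0.77 on the log2 scale after miR200b_mimic (adjusted p = 4.14e-14) and by 0.67 in the mixed group (adjusted p = 7.04e-13), and the difference between these groups, 0.10, did not pass (95% interval −0.04 to 0.23, adjusted p = 0.281). The fall after miR92b_inhibitor was 0.28 in size (adjusted p = 0.000149). That after miR3124_mimic, −0.16 ± 0.0594 (adjusted p = 0.0238), did not pass in DESeq2 (adjusted p = 0.108), with library totals as the only scaling (adjusted p = 0.0617), with no filter on low counts (adjusted p = 0.0516), or without replicate 1 (−0.15, adjusted p = 0.0929) or 2 (−0.17, adjusted p = 0.0656) of miRcontrol or replicate 1 (−0.14, adjusted p = 0.123) or 2 (−0.18, adjusted p = 0.0532) of miR3124_mimic. CCNE1 made up 16.6% and 18.3% of the E-type cyclin mRNA per kilobase in the miRcontrol libraries, and 35.7% and 38.8% after miR200b_mimic.

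CDK2 (chr12:55966769-55972784, plus strand), the kinase of cyclin E, fell modestly in both mimic groups. Its libraries had 118 and 127 CPM in miRcontrol, 98.1 and 109 after miR3124_mimic, 91.1 and 95.9 after miR200b_mimic, 121 and 114 after miR92b_inhibitor, and 114 and 112 in the mixed group. Only the miR92b_inhibitor libraries overlapped miRcontrol. CDK2 fell by 0.24 on the log2 scale after miR3124_mimic (adjusted p = 6.86e-05) and by 0.39 after miR200b_mimic (adjusted p = 1.83e-08). After miR92b_inhibitor it was −0.06 (95% interval −0.16 to 0.04, adjusted p = 0.366). The fall in the mixed group, −0.12 (adjusted p = 0.0424), no longer passed with TMM normalization (adjusted p = 0.0693), library totals (adjusted p = 0.0786), DESeq2 (adjusted p = 0.141) or no filter on low counts (adjusted p = 0.0538). It was also lost without replicate 2 of miRcontrol (−0.07, adjusted p = 0.402) and without replicate 1 (−0.13, adjusted p = 0.0957) or 2 (−0.11, adjusted p = 0.165) of the mixed group.

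CDKN1B rose after miR3124_mimic and in no other group. CDKN1B (chr12:12715058-12722371, plus strand) had 57.4 and 49.6 CPM in miRcontrol, 97.5 and 95.1 after miR3124_mimic, 52.9 and 51.9 after miR200b_mimic, 45.9 and 44.6 after miR92b_inhibitor, and 47.0 and 45.5 in the mixed group. The miR3124_mimic libraries lay above all 8 others, and replicate 1 of miRcontrol lay well above its partner. The log2 fold change was 0.85 ± 0.0579 after miR3124_mimic (adjusted p = 3.17e-17). After miR200b_mimic it was −0.03 (95% interval −0.16 to 0.10, adjusted p = 0.730). The falls after miR92b_inhibitor, −0.24 (adjusted p = 0.00197), and in the mixed group, −0.21 (adjusted p = 0.00508), rested on replicate 1 of miRcontrol. Without that library they were −0.13 (adjusted p = 0.201) and −0.10 (adjusted p = 0.321). Without replicate 2 of the mixed group, the latter was −0.19 (adjusted p = 0.0554). The mixed group was 1.06 lower than miR3124_mimic on the log2 scale (adjusted p = 2.91e-20) and did not differ from miR92b_inhibitor beyond the spread (0.03, 95% interval −0.10 to 0.16, adjusted p = 0.745).

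CDKN1C was not measurable. Its 2 rows summed to 3 counts over all 10 libraries, with at most 1 count in any library, and it was left out of the tests by the filter on low counts. A level of 3 counts, the limit that a count of 0 allows, corresponds to 0.161 to 0.224 CPM in these libraries, for counting error only. In the 3 libraries with a count of CDKN1C the limit is higher.

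Of the 10 members, 9 passed the filter on low counts. After miR3124_mimic 4 rose and 5 fell, against 25.7% of all tested genes called higher and 25.3% called lower. After miR200b_mimic 5 rose and 3 fell, against 21.4% higher and 19.1% lower. After miR92b_inhibitor 3 rose and 3 fell, against 17.5% and 18.2%. In the mixed group 2 rose and 5 fell, against 21.5% and 21.1%. Those 7 calls became 5 in DESeq2, 4 without replicate 1 of miRcontrol, and 4 or 3 without replicate 1 or 2 of the mixed group, and of the 5 falls only that of CCNE2 passed in all alternatives tried. The median log2 fold change of the 9 was −0.16, 0.15, −0.06 and −0.10 in these comparisons, against medians over all genes of 0.00389, −0.0055, −0.0061 and 0.0030.

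At a change of 2-fold or more with an unadjusted p under 0.05, only CCND2 was called after miR3124_mimic (8.81% of all tested genes). CCND2 and CDK6 were called after miR200b_mimic (5.7% of all genes) and in the mixed group (5.42%). After miR92b_inhibitor 0 members passed this rule in edgeR and in DESeq2, against 2.63% of all genes in edgeR. Without the fold limit, 7 members had an unadjusted p under 0.05 in edgeR and 6 in DESeq2. The share of all genes at that p alone was not counted, so these member counts cannot be set against a background. The 4 comparisons share the miRcontrol libraries, so they are not independent of one another.

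**Figure D3:**
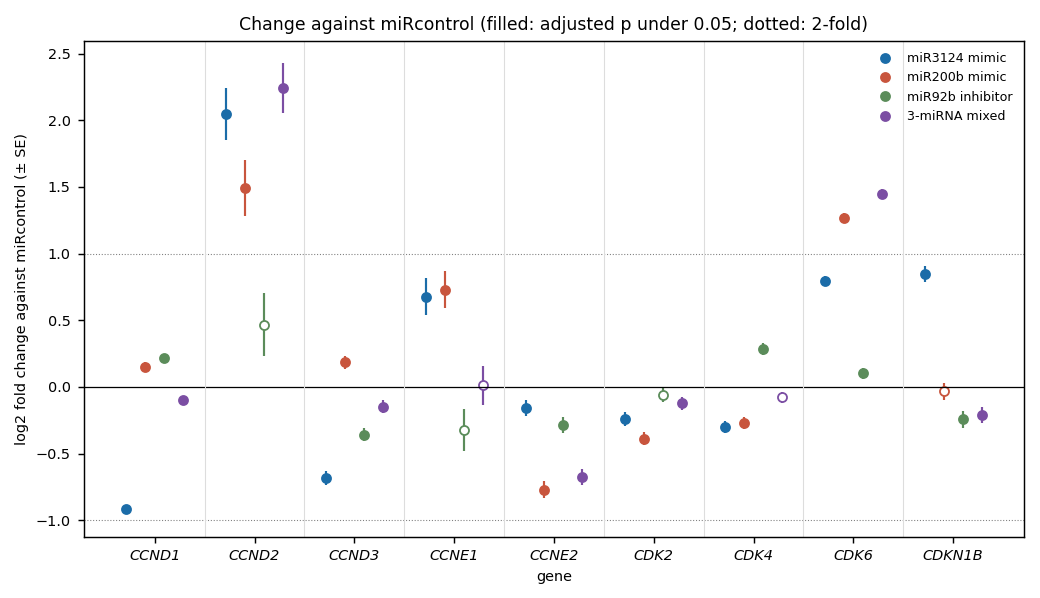
log2 fold change of each tested member against miRcontrol in the mimic, inhibitor and mixed groups, with bars of 1 standard error, filled points for an adjusted p under 0.05 and dotted lines at a 2-fold change. CCND2 and CDK6 lie furthest above 0 in the mixed group at 2.24 and 1.45, and CCND1 furthest below 0 after miR3124_mimic at −0.92.

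Between the mimic, inhibitor and mixed groups, most members differed as well. Of the 9 tested, 7 differed between miR200b_mimic and miR3124_mimic (57.8% of all genes), 8 between miR92b_inhibitor and miR3124_mimic (58.8%) and 8 between the mixed group and miR3124_mimic (49.1%). In the other pairs, 8 differed between miR92b_inhibitor and miR200b_mimic (50.5%), 8 between the mixed group and miR200b_mimic (38.6%) and 6 between the mixed group and miR92b_inhibitor (39.6%). Set side by side, the mixed group was close to miR200b_mimic for CCNE2, and its mean was the highest of all groups for CCND2 and CDK6. For every other tested member its mean lay between the lowest and the highest single transfection, though some neighbouring steps did not pass the test.

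The rest of the G1 pathway was followed in 48 further genes, of which 46 were tested. Set against the shares of all genes given above, more of them fell than rose in each comparison with miRcontrol, with 11 higher and 27 lower after miR3124_mimic, 12 and 21 after miR200b_mimic, 7 and 15 after miR92b_inhibitor, and 5 and 27 in the mixed group. Of 16 E2F-driven S-phase genes, 11 fell after miR3124_mimic, 14 after miR200b_mimic, 7 after miR92b_inhibitor and 13 in the mixed group, while 2, 1, 2 and 0 rose. Of all tested genes, 25.3%, 19.1%, 18.2% and 21.1% fell and 25.7%, 21.4%, 17.5% and 21.5% rose in the same order. The median log2 fold changes of the 16 genes were −0.32, −0.26, −0.10 and −0.35. The largest fall in this list was that of RRM2, the small subunit of ribonucleotide reductase, after miR3124_mimic. RRM2 had 499.7 and 502.8 CPM in miRcontrol and 205.9 and 196.7 after miR3124_mimic, a log2 fold change of −1.32 (adjusted p = 4.35e-31). Thymidylate synthase TYMS led the falls after miR200b_mimic at −0.76, and thymidine kinase TK1 led them after miR92b_inhibitor at −0.33 and in the mixed group at −0.74. The rises in this list were small, led by the replication licensing genes MCM2 after miR3124_mimic (0.15), CDC6 after miR200b_mimic (0.16) and MCM3 after miR92b_inhibitor (0.19).

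Of the RB and E2F genes, 12 were tested, and 4 rose and 7 fell after miR3124_mimic, and 4 and 5 after miR200b_mimic. The counts were 1 and 4 after miR92b_inhibitor, and 1 and 7 in the mixed group. Shares of all tested genes were 25.7% higher and 25.3% lower, 21.4% and 19.1%, 17.5% and 18.2%, and 21.5% and 21.1%. The list medians were −0.25, 0.01, 0.03 and −0.26. RBL1, an RB relative that restrains E2F factors, had the largest fall after miR200b_mimic and in the mixed group. It had 146.3 and 140.8 CPM in miRcontrol, 40.5 and 38.2 after miR200b_mimic and 49.3 and 47.7 in the mixed group, so the groups were far apart (log2 −1.87, adjusted p = 1.13e-30, and −1.57, adjusted p = 1.18e-28). TFDP1, the DNA-binding partner of E2F factors, had the largest fall after miR3124_mimic, from 247.9 to 93.2 CPM (−1.41, adjusted p = 4.60e-30). E2F5 rose there by 1.55 (adjusted p = 0.000737) from 12 and 14 reads to 38 and 34. The repressor E2F7 rose by 0.65 after miR200b_mimic and by 0.45 in the mixed group. After miR92b_inhibitor, E2F4 rose by 0.14 (adjusted p = 0.0424) and RBL2 was lower at −0.30.

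Of 5 other CDK inhibitors tested, 1 rose and 3 fell after miR3124_mimic, and 2 and 2 after miR200b_mimic. The counts were 0 and 3 after miR92b_inhibitor, and 0 and 4 in the mixed group. Over all tested genes, 25.7% rose and 25.3% fell, 21.4% and 19.1%, 17.5% and 18.2%, and 21.5% and 21.1%. The list medians were −0.23, −0.19, −0.53 and −0.53. CDKN2C, an inhibitor of CDK4 and CDK6, had the largest fall in all 4 comparisons. It had 76.0 and 82.7 CPM in miRcontrol and 36.5 and 34.6 in the mixed group (−1.16, adjusted p = 3.13e-21), with log2 fold changes of −0.71 after miR3124_mimic, −0.83 after miR200b_mimic and −0.57 after miR92b_inhibitor. CDKN1A (CIP1), a relative of CDKN1B, had 95.4 and 94.7 CPM in miRcontrol and 158.6 and 173.7 after miR200b_mimic, a rise of 0.81 (adjusted p = 4.03e-19), and rose by 0.16 after miR3124_mimic (adjusted p = 0.00521). After miR92b_inhibitor it fell, to 65.9 CPM (−0.53, adjusted p = 3.04e-11), and in the mixed group it was 0.08 (adjusted p = 0.222).

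Among 13 tested genes of cyclin-CDK control, 4 rose and 6 fell after miR3124_mimic, and 5 and 0 after miR200b_mimic. The counts were 4 and 1 after miR92b_inhibitor, and 4 and 3 in the mixed group. Of all tested genes, 25.7% rose and 25.3% fell, 21.4% and 19.1%, 17.5% and 18.2%, and 21.5% and 21.1% in this order. The list medians were −0.02, 0.06, 0.09 and 0.05. WEE1, a kinase that places inhibitory phosphate on CDKs, rose by 0.94 after miR3124_mimic (adjusted p = 1.10e-19), where the CDK-binding CKS2 was lower at −0.71 (adjusted p = 3.15e-15). CDC25A, the phosphatase that removes such phosphate, rose by 0.82 after miR200b_mimic and by 0.75 in the mixed group. MNAT1, an assembly factor of the CDK-activating kinase, rose by 0.42 after miR92b_inhibitor, and SKP2, which recognises CDKN1B for degradation, was lower at −0.17 (adjusted p = 0.0241). FBXO4, at 2.92 CPM in miRcontrol, was at −0.88 in the mixed group (adjusted p = 0.0177).

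**Figure D4:**
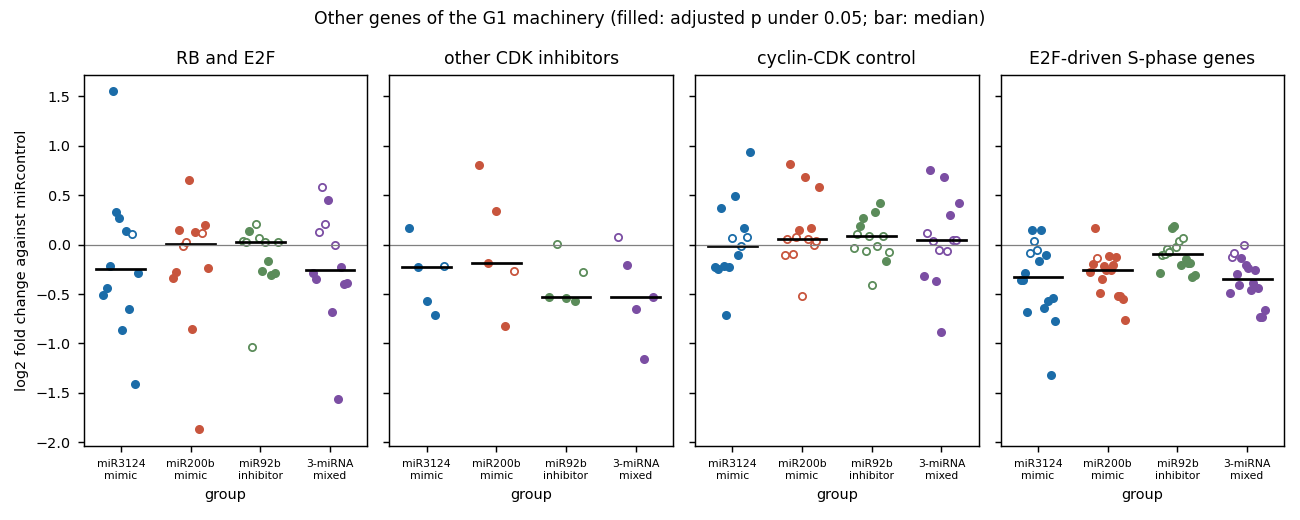
log2 fold change against miRcontrol of the tested genes of the 4 other G1 lists in the mimic, inhibitor and mixed groups, with a point per gene, filled for an adjusted p under 0.05, and a bar at the list median. Most E2F-driven S-phase genes lie under 0 in both mimic groups and the mixed group, where the list medians are −0.32, −0.26 and −0.35.

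For the 5 members whose highest and lowest group means differed by at least 2-fold, the genes with the most similar level over the 10 libraries were taken from 10409 other genes with a mean of at least 5 CPM, by Pearson's r. The libraries of a group are not independent points, and the r values describe these libraries only. For CCND1 they were IFRD2 (0.995), RIOX2 (0.994) and FGF5 (0.994), and IFRD2 was at 21.4 CPM after miR3124_mimic against 90.7 in miRcontrol. For CDK6 they were GBP3 (0.991), the keratin gene KRT8 (0.989) and CAV2 (0.985). CCND2 was followed most closely by FHOD3 (0.983), ZNF678 (0.981) and FBXO21 (0.976), and CDKN1B by GRB10 (0.987), SMIM14 (0.984) and ADGRL2 (0.984). CCNE1 had the weakest likeness, with FHL3 (0.971), GALC (0.967) and GSTZ1 (0.965).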

How the data were processed

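The authors trimmed the reads, mapped them with TopHat to GRCh38 (per the submitters' processing notes) and deposited raw read counts per gene for each library. The libraries were poly(A)-selected and directional. The annotation and the counting tool are not given in the sources used here. Each table held 58173 rows, of which 5771 repeated a symbol, and the counts of a repeated symbol were summed.

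The counts were analysed in R 4.3.3 with edgeR 4.0.16 and limma 3.58.1: filterByExpr, relative log expression (RLE) factors (0.985 to 1.016), and the quasi-likelihood test in 1 fit of all 10 libraries without covariates (common dispersion 0.000752), with Benjamini-Hochberg adjustment over 14884 genes. CPM is the count per 1000000 of the library total times its factor. The standard error is the size of the log2 fold change over the root of the F statistic. The second call rule, a 2-fold or larger change at an unadjusted p under 0.05, is that of the study. The script was tested on simulated data. Libraries of a group differed by 1.78 to 2.76 times the variance of counting error, so none was a duplicate. Libraries with the same replicate number did not deviate together (correlations of −0.0613 to 0.0614 between groups over 10418 genes).

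The members, the other G1 lists, the marker lists and the tests were chosen with earlier results of these data known. All members were named. From each other G1 list and comparison with miRcontrol, the largest rise and the largest fall with an adjusted p under 0.05 and a mean of at least 1 CPM were named. For members whose group means spanned at least 2-fold, the 3 genes with the highest Pearson's r were named. 3′UTRs and exon lengths came from GENCODE v29, and a gene's exon length was the union of its exons. Alternatives were TMM, library totals, DESeq2 1.42.0, no filter on low counts, a replicate block, a minimum of 10 counts in every library, a fit of only the groups compared, and each library left out.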

Additional observations from a re-analysis of the deposited data

How the results depend on the processing

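Of 206 alternative counts of called genes, 203 stayed within 1.5 times the reported count. The exceptions were the members called in the 3-miRNA mixed group against miRcontrol, 7 in the reported fit and 3 to 6 when a library was left out (4 without replicate 1 of miRcontrol, 4 without replicate 1 and 3 without replicate 2 of the mixed group). An arm with 1 library was assumed to vary like the other groups. Of 396 alternative fold changes over 36 member comparisons, 368 kept their side of the threshold and 28 in 7 comparisons lost it, 19 of these with a library left out, and 0 called values changed sign. The values not called for CDKN1B in miR200b_mimic (−0.13 to 0.08) and CCNE1 in the mixed group (−0.14 to 0.14) took either sign. With a replicate block, 9, 8, 6 and 7 members were called in miR3124_mimic, miR200b_mimic, miR92b_inhibitor and the mixed group, as without it, and the block changed no member's call. Changes in CCND2 and CCNE1 rest on few reads, which limits their precision.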

Other observations

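Words of 4 other miRNAs were looked up in the 3′UTRs of the members, a choice made after seeing the data. The word of hsa-miR-29a-3p, TGGTGCT, was present 2 times in CCND2, 2 times in CDK6 and once in CDK2, and in 16.5% of the tested genes with a 3′UTR. The word of hsa-miR-16-5p, TGCTGCT, was in 5 members (CCND1, CCND2, CCND3, CCNE1 and CDK6) and in 24.7% of the tested genes, and CDK4 had it in another annotated 3′UTR. The word of hsa-miR-34a-5p, CACTGCC, was in 4 members (CCNE2, CDK6, CDKN1B and CDKN1C) and in 17.6% of the tested genes. The word of hsa-let-7a-5p, CTACCTC, was in 0 members and in 11% of the tested genes. A word is a match of letters and says nothing of binding.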
